A study of Mus musculus with 2 samples.

Results

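The 35 genes described here encode receptors, or subunits of receptors, for glutamate and GABA, the main excitatory and inhibitory transmitters of the brain. They were chosen by name and not by a measured value, although earlier results of these data were known. Their m6A sites are all listed positions inside the annotated interval of each gene on its own strand. The genes comprise 4 AMPA, 7 NMDA, 5 kainate, 1 delta and 7 metabotropic glutamate receptor genes, with 9 GABA-A and 2 GABA-B receptor genes. Of the 35 genes, 32 carried at least 1 site in either library, as did 12869 of 21938 annotated protein-coding genes.

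The sites came from GLORI, in which glyoxal and nitrite deaminate unmethylated adenosines while N6-methyladenosine (m6A) resists and is still read as A. One library was made from cerebellum and 1 from cerebrum, each from poly(A)+ RNA of a female mouse on the day of birth (P0). Both tissues came from the F1r hybrid, the offspring of a C57 (C57BL/6J) mother and a PWK (PWK/PhJ) father, so both libraries carry the same mixed genotype. The study set out to find m6A that differs between alleles, and the lists analysed here do not separate them. With 1 library per tissue there was no replicate, and every difference given here is a difference between these 2 libraries. A position missing from a list can be unmethylated, in a gene not expressed there, or too thinly covered, and these cannot be told apart. Nor can fewer cells that express a receptor be told apart from less RNA per cell.

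AMPA, NMDA and kainate receptors are ligand-gated cation channels assembled from several subunits, and carry fast excitation. Metabotropic glutamate receptors (mGlu) and GABA-B receptors act through G proteins, and GABA-A receptors are chloride channels that are likewise built from several subunits. The subunit genes are switched on and off as neurons mature, and m6A, placed by the METTL3-METTL14 methyltransferase mainly at DRACH sequences (where D stands for any base but C, R for a purine and H for any base but G), bears on the stability and translation of mRNA. Many m6A sites of mRNA lie in long internal exons, around the stop codon and in the 3′ UTR.

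The sites nearest to the stop codon show what these positions look like in the transcripts. For each class the list below gives, in the member with the most exonic DRACH sites shared by both libraries in that class, the shared site closest to the stop codon. Sequences are from GRCm38 (mm10), 5′ to 3′ on the gene's strand, with the DRACH 5-mer in capitals and the listed adenosine at its centre.

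Gria2, AMPA, chr3:80688622-80688650, minus strand, 3′ UTR: atggacgtgttaTGACTccagaatttccc
Grin2b, NMDA, chr6:135732111-135732139, minus strand, coding: catgtttatgagAAACTttctagtattga
Grik2, kainate, chr10:49101065-49101093, minus strand, 3′ UTR: tcacccaagcacAAACTgtcgtctttttt
Grid1, delta, chr14:35580924-35580952, plus strand, 3′ UTR: acacacacacacAGACTctttcatttttc
Grm5, mGlu, chr7:88130809-88130837, plus strand, coding: ctctcccaaataTGACActctcatcatca
Gabrb2, GABA-A, chr11:42626873-42626901, plus strand, coding: gctttattatgtGAACTaaactacagcct
Gabbr2, GABA-B, chr4:46664812-46664840, minus strand, coding: agccctcgccacAGACAcgtaccaccctc

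All 7 lie in the last exon of their transcript. The Gabrb2 site is 4 nt before the last base of the stop codon, and the Grin2b, Gabbr2 and Grm5 sites are 27, 42 and 46 nt before it. The Grik2, Gria2 and Grid1 sites are 29, 82 and 129 nt into the 3′ UTR. The Grid1 site follows a run of alternating a and c.

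The 35 genes held 890 sites in cerebellum, in 31 genes, and 1859 in cerebrum, in 32 genes, or 2329 different positions. Among 21938 annotated coding genes, 9043 had a site in cerebellum and 12601 in cerebrum. The whole lists hold 79355 and 188295 positions, so the cerebrum list is the longer one. The tissue labels were checked against marker genes. Of 10 hindbrain genes, 6 carried an exonic DRACH site in the cerebellum library (37 sites) and 2 in the cerebrum library (3 sites), with none in either for 4 genes, among them Atoh1 and Pax2. Gbx2 went against the list, with 1 in cerebellum and 2 in cerebrum. Of the forebrain genes, Tbr1, Fezf2, Dlx1, Dlx2 and Emx1 carried 16, 13, 27, 10 and 2 in cerebrum and none in cerebellum. Bcl11b, Lhx2, Neurod6 and Emx2 had sites in both, 22, 6, 1 and 1 in cerebellum and 54, 7, 13 and 5 in cerebrum.

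Sites on exons and in introns of the receptor genes were of different kinds. On exons of any annotated isoform, 370 cerebellum sites and 515 cerebrum sites were in a DRACH 5-mer, and 121 and 296 were not. The DRACH share of exonic sites was 75.4% in cerebellum (95% Wilson interval 71.4 to 79.0) and 63.5% in cerebrum (60.1 to 66.7), near the 73.7% and 60.0% of all coding genes. In introns only 55 and 138 sites were DRACH against 344 and 910 that were not, so that the intronic DRACH share was 13.8% (10.7 to 17.5) and 13.2% (11.2 to 15.3). This was below the 28.9% and 21.6% of all coding genes. Among genes spanning at least 200 kb it was 12.6% and 13.2% for receptor genes and 20.5% and 16.7% for all genes. All intervals given here cover counting error over sites, which are not independent of each other.

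Introns held 44.8% of the receptor genes' sites in cerebellum and 56.4% in cerebrum, compared with 21.8% and 29.6% over all coding genes. The receptor genes are long, with a median span of 223 kb against 27.1 kb for coding genes with a site, and 54.3% of them reach 200 kb against 7.09%. Within genes of at least 200 kb the intronic shares were 50.9% and 61.9% for the 19 long receptor genes and 53.4% and 65.5% for all such genes. Among genes of that length the receptor genes had no higher intronic share. Counts of exonic DRACH sites are therefore used below to describe each receptor.

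**Figure D1:**
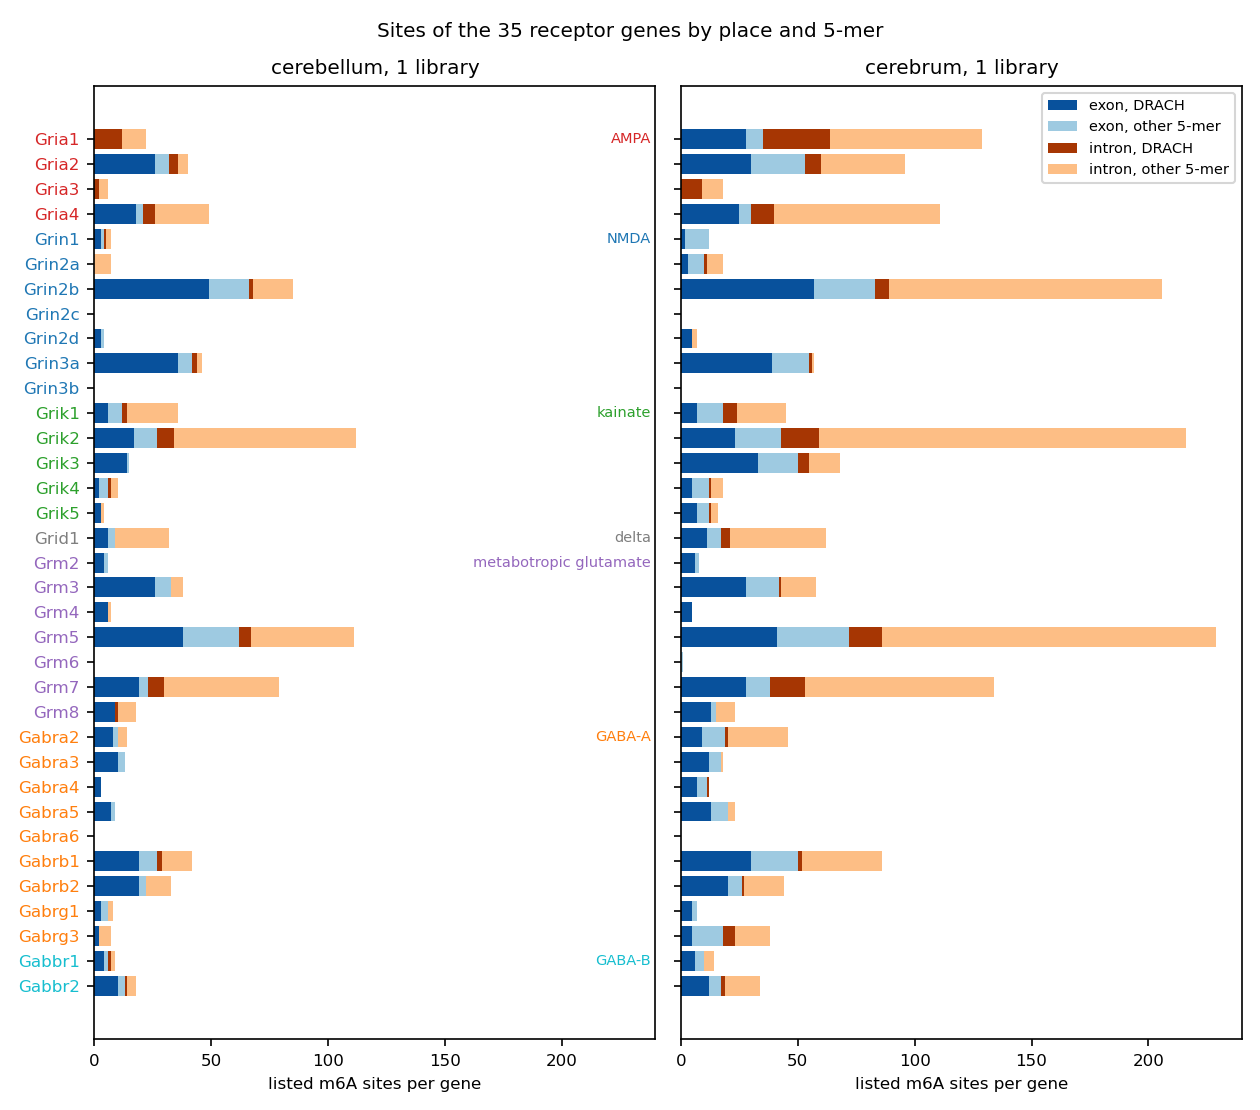
Listed m6A sites of each of the 35 receptor genes in the cerebellum library (left) and the cerebrum library (right), as stacked horizontal bars on a shared axis of sites per gene. Dark and light blue are exonic sites in DRACH and in other 5-mers, brown and orange are intronic ones, and gene labels are coloured by receptor class. The longest bars, those of Grm5, Grik2 and Grin2b, are mostly intronic in cerebrum, and Gria1 has no blue in cerebellum.

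Among the AMPA receptor genes, Gria2, whose edited subunit makes the channel impermeable to calcium, carried 26 exonic DRACH sites in cerebellum and 30 in cerebrum, 24 of them the same positions. Its 3′ UTR held 20 and 21 of these. Gria4 carried 18 and 25, with 15 shared. Gria1 differed from them, with 28 exonic DRACH sites in cerebrum, 24 of them in its 3′ UTR, and no site of any 5-mer on its exons in cerebellum. Of 962 coding genes with at least 20 exonic DRACH sites in cerebrum, 12 had none in cerebellum. Gria1 was the 1 such gene among 12 receptor genes at that level. Gria3, an X-linked subunit gene, had no exonic site in either library although its isoform holds 116 DRACH adenosines.

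The NMDA receptor genes differed widely. Grin2b, which encodes the GluN2B subunit that predominates before and around birth, had the most exonic DRACH sites of all 35 genes, 49 in cerebellum and 57 in cerebrum, with 43 shared. Grin3a, encoding a subunit that is also abundant in the young brain, had 36 and 39, with 31 shared. Grin1, the obligatory subunit of every NMDA receptor, had only 3 and 2 and shared none of them. Grin2a, whose product takes over from GluN2B later in development, had none in cerebellum and 3 in cerebrum, and Grin2d had 3 and 5. No site was listed in Grin2c or Grin3b in either library.

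Among kainate receptor genes Grik3 had 14 exonic DRACH sites in cerebellum and 33 in cerebrum. Its 3′ UTR held 13 of the former and 30 of the latter. Grik2 had 17 and 23, and its total of 112 and 216 sites was mostly intronic, with 78 and 157 intronic sites outside DRACH. Grik1 had 6 and 7, Grik4 2 and 5, and Grik5 3 and 7. Grid1, a delta subunit known for its part in synapse organisation, had 6 and 11, and all 6 of the cerebellum sites were also in the cerebrum list.

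Metabotropic receptor genes carried many sites in few genes. Grm5, a receptor coupled to Gq and phospholipase C, had 38 in cerebellum and 41 in cerebrum, with 34 shared. Grm3, coupled to Gi and present in neurons and astrocytes, had 26 and 28, with 25 shared, on a transcript of 3049 nt. Grm7 had 19 and 28, Grm8 9 and 13, and Grm2 4 and 6. Grm4, a receptor of granule cell terminals in the mature cerebellum, had 6 and 5. Grm6, known from bipolar cells of the retina, had 1 listed site in all, a 3′ UTR site outside DRACH in cerebrum.

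In the GABA-A family the β subunit genes led. Gabrb1 had 19 exonic DRACH sites in cerebellum and 30 in cerebrum, and Gabrb2 had 19 and 20. The α subunit genes Gabra3, Gabra2, Gabra5 and Gabra4 had 10 and 12, 8 and 9, 7 and 13, and 3 and 7. The γ subunit genes Gabrg1 and Gabrg3 had 3 and 5, and 2 and 5. Gabra6, a subunit of mature cerebellar granule cells, had no listed site. Of the GABA-B subunits, Gabbr2, which couples to the G protein, had 10 and 12, and Gabbr1, which binds GABA, had 4 and 6.

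**Figure D2:**
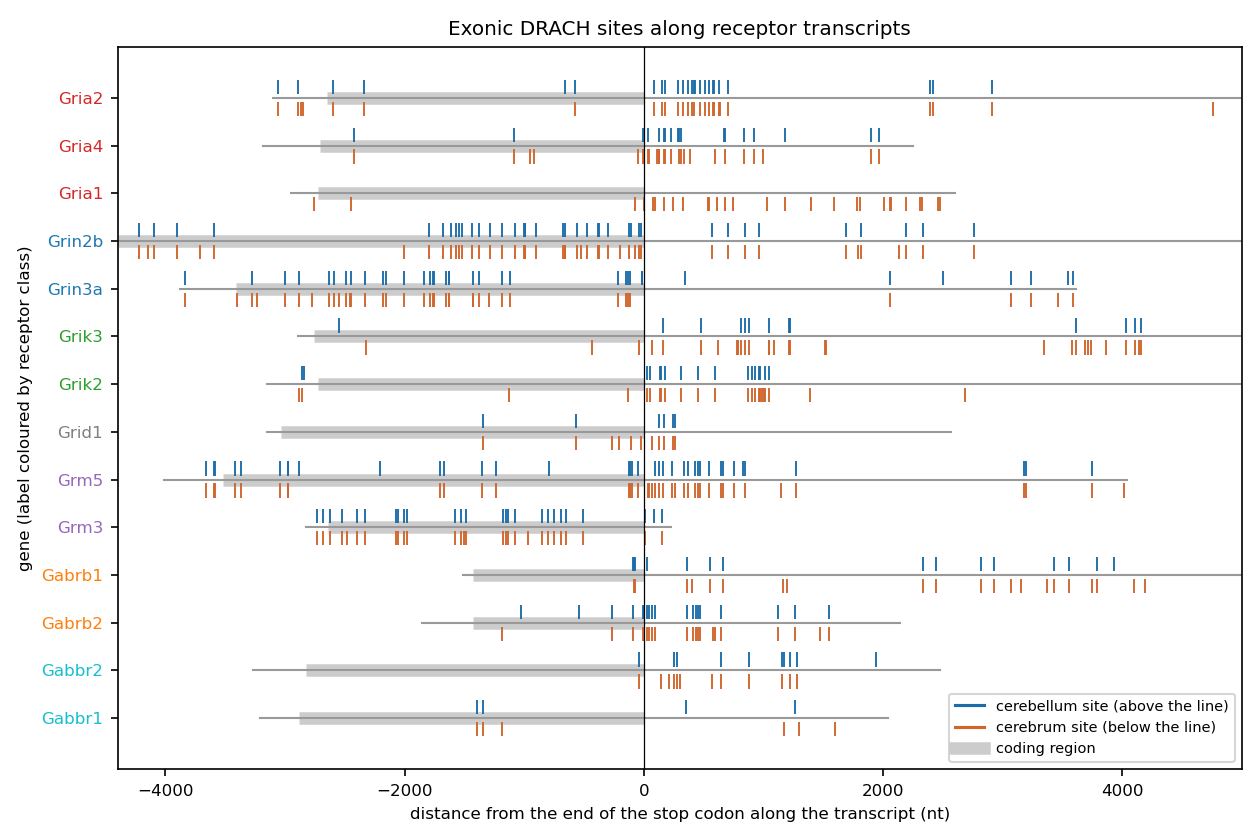
Exonic DRACH sites of 14 receptor transcripts by distance from the stop codon along the transcript, in nt, with cerebellum sites above each line and cerebrum sites below. Grey boxes are coding regions and thin lines UTRs of the longest complete coding isoform. Sites on another isoform, 4 of Gria4 in each library and 1 of Gabbr1 in cerebellum, are drawn by distance from the stop codon of that isoform. Beyond the axis lie 16 of 282 cerebellum and 23 of 380 cerebrum sites. Sites of Gria2, Gria4, Grik2 and Grik3 gather after the stop codon, those of Grin2b, Grin3a and Grm3 in the coding region, and Gria1 has sites below its line only.

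Where the sites lay in the transcript differed between the classes. To allow for unequal sequence, the listed share of all DRACH adenosines was taken on the longest complete coding isoform of each gene. In the coding region it was 18.6% (14.9 to 23.0) in cerebellum and 21.8% (17.8 to 26.4) in cerebrum for metabotropic receptors, and 11.8% (9.24 to 14.9) and 14.4% (11.6 to 17.7) for NMDA receptors. For AMPA receptors it was 2.98% (1.45 to 6.02) and 5.11% (2.94 to 8.71), and for kainate receptors 2.21% (1.02 to 4.75) and 4.80% (2.82 to 8.03). The coding intervals of metabotropic and NMDA receptors did not overlap those of AMPA or kainate receptors in either library. These intervals count adenosines, so they do not measure the spread between the genes of a class. All coding genes with a site had 3.55% and 6.28% in the coding region, near the AMPA and kainate values. Both high values came from few genes. Grin2b and Grin3a held 30 and 28 of the 59 NMDA coding sites in cerebellum and 36 and 33 of the 72 in cerebrum. Of 66 metabotropic coding sites in cerebellum, Grm3, Grm5 and Grm7 held 21, 16 and 15. Of 77 in cerebrum they held 24, 13 and 21. Grm2 and Grm4 had 4 each in cerebellum, and Grm6 had none in either library.

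In the 3′ UTR the classes stood in another order. There the listed share was 3.55% (2.38 to 5.28) and 4.48% (3.14 to 6.36) for NMDA receptors, but 9.37% (6.68 to 13.0) and 18.1% (14.4 to 22.6) for AMPA and 10.9% (7.88 to 14.8) and 18.8% (14.9 to 23.6) for kainate receptors. Metabotropic receptors had 13.9% (9.77 to 19.3) and 16.3% (11.9 to 22.1), with intervals that overlapped those of AMPA and kainate receptors in both libraries. All coding genes had 5.15% and 8.55%. GABA-A receptors had 6.67% (5.13 to 8.62) and 10.4% (8.50 to 12.8) in the 3′ UTR and 5.59% (3.56 to 8.66) in the coding region of both libraries. Grin2b, whose 3′ UTR is 18865 nt long, held 11 and 17 of the 23 and 29 NMDA receptor sites in a 3′ UTR. The shares of the other glutamate classes rested on few genes too. Grm5 held 19 and 24 of the 28 and 33 metabotropic sites. Of the 34 and 59 kainate sites, Grik2 held 15 and 19 and Grik3 13 and 30. Gria1 held 0 and 24 of the 31 and 60 AMPA sites, and Gria3 had none.

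The coding sites lay in long exons. In internal coding exons under 200 nt, 0.636% (0.272 to 1.48) of the receptor genes' DRACH adenosines were listed in cerebellum and 0.509% (0.198 to 1.30) in cerebrum. The share was 4.45% (2.90 to 6.78) and 5.57% (3.80 to 8.09) in those of at least 200 but under 400 nt, and 24.1% (19.9 to 28.8) and 30.9% (26.3 to 35.9) in those of 400 nt or more. In the coding part of the last exon it was 17.9% (13.8 to 22.8) and 22.5% (18 to 27.7). All coding genes with a site showed the same order at lower levels, with 0.135% and 0.448% in the shortest exons and 11.1% and 18.3% in the longest. For the shortest exons in cerebrum the receptor value rests on 4 sites, and its interval holds the 0.448% of all coding genes.

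Among these exons, the last exon of Grin2b is 20716 nt long, and its coding part held 26 sites in cerebellum and 29 in cerebrum, 25 of them shared. In Grin3a, exon 3 of 9 is 1048 nt long and held 12 and 14, all 12 of the former shared. In Grm3 exons 2, 3 and 4 of 6, of 609, 856 and 1067 nt, held 4 and 5, 7 and 8, and 10 and 11. In Grm7 exon 8 of 10, of 936 nt, held 9 and 14. The AMPA receptor isoforms hold only 2 DRACH adenosines in internal coding exons of 400 nt or more and the kainate isoforms 5, against 154 in the NMDA and 188 in the metabotropic receptor isoforms.

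**Figure D3:**
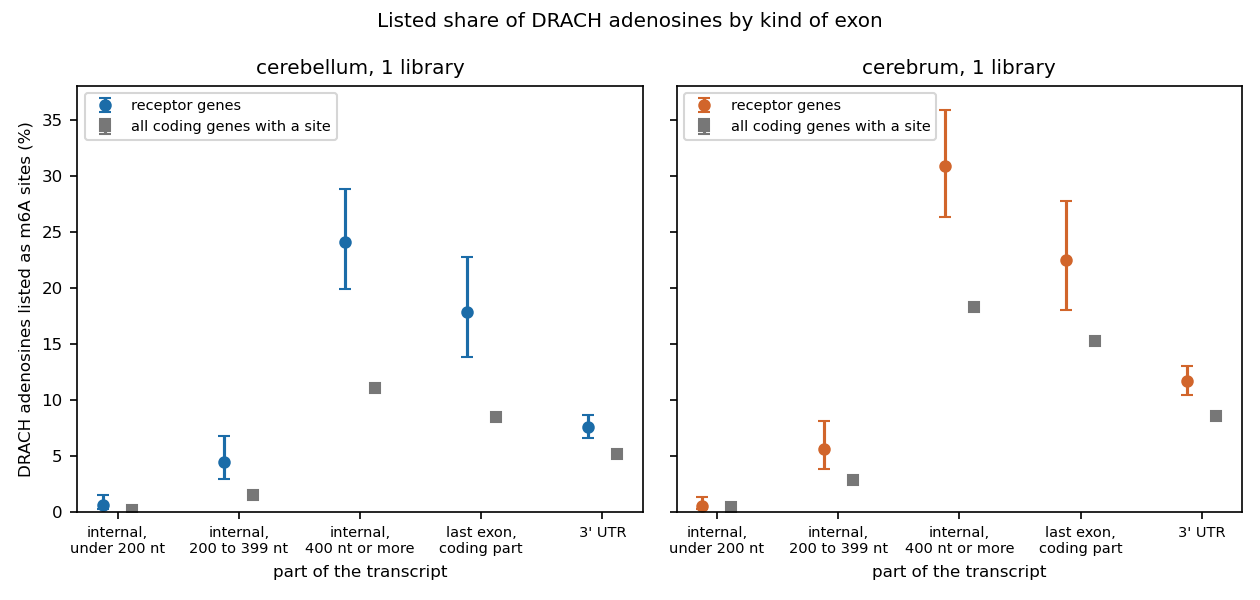
Share of DRACH adenosines listed as m6A sites, in percent, by part of the transcript, for the receptor genes (circles) and for all coding genes with a site (grey squares), with the cerebellum library on the left and the cerebrum library on the right. Bars are 95% Wilson intervals over adenosines. The receptor genes peak in internal coding exons of 400 nt or more, at 24.1% and 30.9%.

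Over whole isoforms, 8.06% (7.30 to 8.89) of the receptor genes' 4493 DRACH adenosines were listed in cerebellum and 11.2% (10.3 to 12.2) in cerebrum, compared with 4.22% and 7.20% for all coding genes with a site. Grm3 had the highest share of any member, 40.6% and 43.8%. The share for all genes includes genes that may be little expressed in these tissues, and expression was not measured here. Within 200 nt of the stop codon 19.3% and 25.9% of the receptor genes' DRACH adenosines were listed, against 8.69% and 14.9% for all coding genes.

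The position by the stop codon was also read per site. Of the exonic DRACH sites on a coding isoform, 16.6% (13.1 to 20.7) in cerebellum and 15.9% (13.0 to 19.3) in cerebrum were within 200 nt of it, against 21.9% and 22.0% for all coding genes. The long receptor genes, of at least 200 kb, had 18.7% (14.4 to 23.9) and 17.7% (14.2 to 21.9), next to 16.7% and 15.9% for all genes of that length. The 16 shorter receptor genes had 11.3% (6.60 to 18.7) and 10.6% (6.42 to 17), below the 21.9% and 22.0% of coding genes of any length. No value for coding genes of like length is given here. Grin3a and Gria2 held 36 and 26 of the 106 cerebellum sites of the shorter receptor genes. The median distance of 3′ UTR sites from the stop codon was 642.5 nt and 812 nt for receptor genes and 499 nt and 509 nt for all coding genes. It was longest for NMDA receptors, at 1815 nt and 2129 nt.

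Most receptor genes had less than 2 times as many exonic DRACH sites in cerebrum as in cerebellum. Of the 35 genes 30 had such a site in either library, as did 10025 of 21938 annotated coding genes. Of the 30, 7 had at least 2 times as many in cerebrum as in cerebellum, whereas 55.2% of the 10025 coding genes did. The 7 were Gria1, Grin2a, Grik3, Grik4, Grik5, Gabra4 and Gabrg3. Any excess in cerebrum was found for 28 of the 30, against 81.6% of all genes. Pooled over genes, cerebrum had 1.39 times as many exonic DRACH sites as cerebellum in receptor genes and 1.72 times in all coding genes.

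Grin1 and Grm4 were the 2 members with more exonic DRACH sites in cerebellum, an excess that 7.71% of all genes showed. Both differences were of 1 site. The 3 Grin1 sites of cerebellum were in exon 10 and in the 3′ UTR, 351 and 407 nt past the stop codon, and the 2 of cerebrum were 732 and 1041 nt past it. No member had at least 2 times as many in cerebellum, which 4.58% of all genes had, and none had them in cerebellum only, against 3.15%. Gria1 and Grin2a were the 2 members with exonic DRACH sites in cerebrum only, a pattern of 24.8% of all genes. At 1.5 times, 14 members were higher in cerebrum and Grin1 alone in cerebellum, against 67.8% and 5.40% of all genes. Among genes with 5 or more such sites over both libraries, 6 of 29 members had 2 times as many in cerebrum and none in cerebellum, against 43.1% and 1.14%. By all sites of the gene interval, introns included, 15 of 32 members had 2 times as many in cerebrum and none in cerebellum, against 73.4% and 3.03%.

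The exonic DRACH positions themselves were largely shared. Of the exonic DRACH sites in the receptor genes, 314 were in both lists, which is 84.9% (80.9 to 88.2) of those in cerebellum and 61.0% (56.7 to 65.1) of those in cerebrum. For all coding genes the shares were 83.4% and 48.5%. Exonic sites outside DRACH were shared less, at 44.6% (36.1 to 53.5) and 18.2% (14.3 to 23.0), and intronic sites outside DRACH least, at 8.43% (5.93 to 11.8) and 3.19% (2.23 to 4.54). By class the cerebrum share of exonic DRACH sites also found in cerebellum ran from 47.0% for AMPA receptors, with Gria1 among them, to 71.9% for metabotropic receptors.

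**Figure D4:**
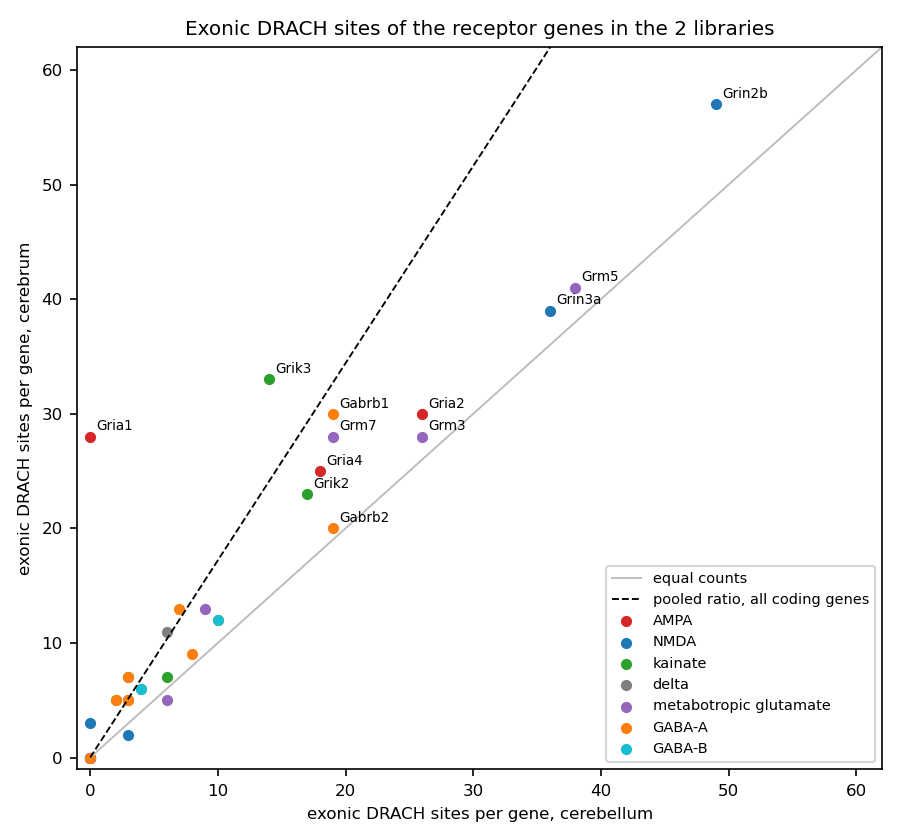
Exonic DRACH sites of each receptor gene in the cerebellum library (x axis) and the cerebrum library (y axis), both as sites per gene, with 1 point per gene coloured by class and names for genes with at least 20 cerebrum sites. The grey line marks equal counts and the dashed line the pooled ratio of all coding genes, 1.72. Grin2b, Grin3a, Grm5 and Grm3 lie near the line of equal counts, Grik3 lies above the dashed line, and Gria1 stands at 0 in cerebellum and 28 in cerebrum.

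The exonic 5-mers were mostly those of other genes. On exons the 5 most frequent were AGACT with 48 sites, GGACT with 46, GGACA with 45, TGACT with 41 and GAACT with 39 in cerebellum. In cerebrum the same 5 led, with GGACT at 68, GAACT at 64, AGACT at 61, GGACA at 60 and TGACT at 57. GGACT made up 9.37% and 8.38% of exonic receptor sites against 9.64% and 8.12% in all coding genes. Outside DRACH, GGATT was listed at 18 and 24 exonic sites, or 3.67% (2.33 to 5.72) and 2.96% (2.0 to 4.37), against 1.47% and 1.27% in all coding genes.

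Although DRACH sites were rare in introns, some stood in close rows. Runs were defined, after the values had been seen, as at least 5 intronic DRACH positions of one intron with no gap over 4000 nt. Such runs were found in 4 receptor genes, Gria1, Gria3, Grm7 and Gabrg3. That is 4 of the 11 receptor genes with at least 5 intronic DRACH positions, against 219 of 450 among all coding genes, so runs were no more frequent in the receptor genes. The runs took up 48 of the 170 intronic DRACH positions of the receptor genes. No position of a run was on an exon annotated by RefSeq or in another gene.

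In Gria1 the run lay at chr11:57311505-57317105, in the intron of 6943 nt between exons 14 and 15 of 16. It held 21 DRACH positions, 20 in the cerebrum list and 9 in the cerebellum list, with 8 shared. These were 15.9% and 7.14% of its 126 DRACH adenosines. The run was picked for its listed positions and begins and ends on them. Both shares are raised by that choice and cannot be set beside those of the isoforms. The cerebellum library therefore listed Gria1 sites in this intron while it listed none on any Gria1 exon. In Gria3, which had no exonic site at all, 9 positions at chrX:41655971-41660254 were listed in cerebrum and 2 of them also in cerebellum, in the intron before exon 14 of 16. The Grm7 run at chr6:110646613-110648725 began 227 nt into an intron and held 8 positions, all in cerebrum and 2 also in cerebellum. A further Grm7 run at chr6:110713231-110722151 had 3 positions in cerebellum and 2 in cerebrum with none shared, and Gabrg3 had 5 at chr7:57240826-57242360, in cerebrum alone.

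A site found in both libraries is shown for each of the first 3 runs, chosen after the values were seen, with the DRACH 5-mer in capitals on the plus strand of GRCm38.

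Gria1, intron, chr11:57313180-57313208: tgaaccccaaacAGACAtgttcctgccag
Gria3, intron, chrX:41655974-41656002: ttttttcttcagAGACAatgcttataatt
Grm7, intron, chr6:110646599-110646627: ctccatacggcaTGACTccccggatttat

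**Figure D5:**
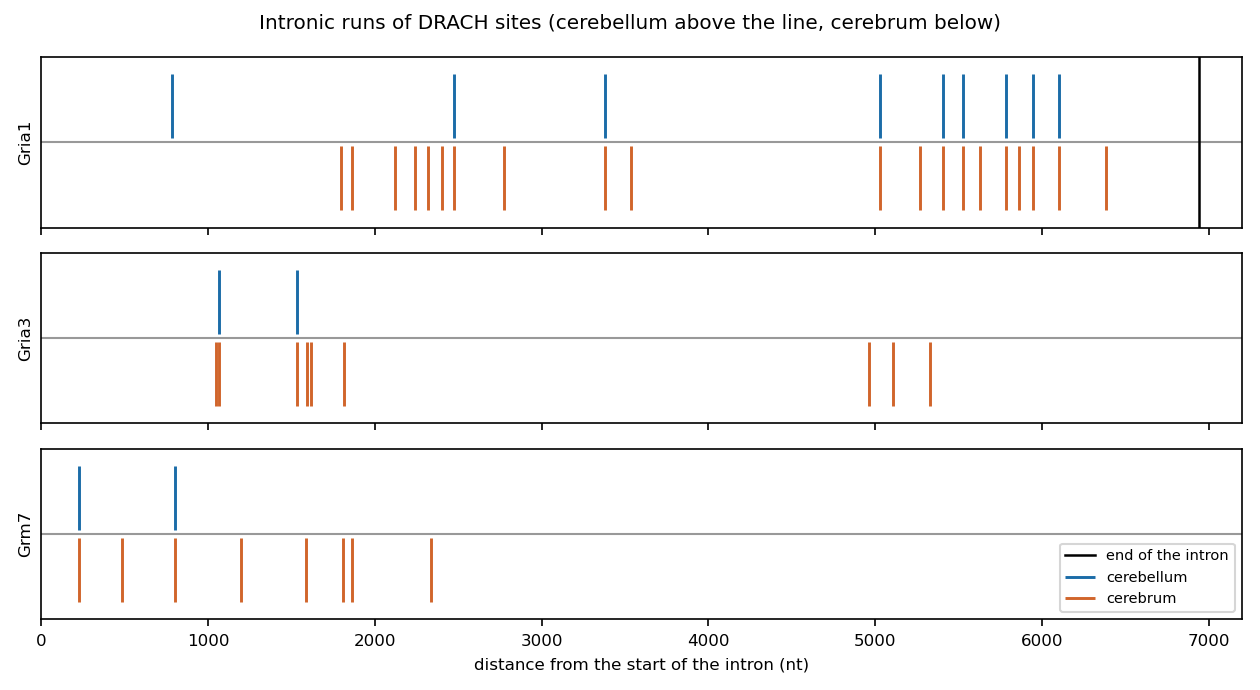
Positions of intronic DRACH sites in the runs of Gria1, Gria3 and Grm7, by distance in nt from the start of the intron, with cerebellum sites above each line and cerebrum sites below. The black line marks the end of the Gria1 intron; the other introns go on beyond the axis. Most cerebellum sites of Gria1 stand at positions that the cerebrum library also lists, 8 of 9.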

How the data were processed

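GLORI was performed on poly(A)+ RNA of 1 cerebellum and 1 cerebrum library. Per the study's methods, the authors ran GLORI-tools against mm10 and against a PWK version of it, joined both site sets of a library and filtered on methylation rate and read count. The deposited files list genomic positions with strand (the unit, other than any level or count) and hold no rates or read counts, so depth is unknown, no level could be compared, and the filter shapes which sites appear. No test between libraries was made.

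Sites were assigned to genes of GENCODE M21 on GRCm38 (mm10) by strand and interval, then to the longest complete coding isoform covering the site, another exon, or an intron. The authors name another GENCODE release. 5-mers were read from GRCm38 with pysam 0.24.0 and tabulated with pandas 2.3.3. This is the C57 sequence, so a site in a DRACH 5-mer on the PWK allele only is counted here as outside DRACH. On simulated sites planted in 334 genes, 100% of regions and stop codon distances were recovered. All were planted on the longest complete coding isoform, so this checks the coordinates on that isoform only. The choice between isoforms and the split of exons from introns were not checked. Shares have 95% Wilson intervals. Background is all coding genes with a site. The members and lists were chosen with earlier results of these data known. Every member is given by count, the 2 members per class with the most exonic DRACH sites in more detail. Gria1, the class shares, the long exons and the intronic runs were singled out after their values were seen. Part of the forebrain marker list, and so its totals, is not reported here.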

Additional observations from a re-analysis of the deposited data

How the results depend on the processing

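No paired analysis was possible because each tissue has 1 library. Of 48 alternatives, 25 left the value of the receptor genes within its interval or, for counts, within 1.5 times, among them sites of other genes left out, another isoform rule, matching within 1 nt and, added after the data were seen, RefSeq exons counted as exons. With only exonic sites, totals fell to 491 in cerebellum and 811 in cerebrum and the DRACH share rose to 75.4% and 63.5%. Without Grik2, the gene with the most positions, the DRACH share was 51.5% and 37.4%, the intronic share 40.4% and 53.3% and the coding share 27.2% and 19.3%. With only DRACH sites these were 12.9% and 21.1% for introns, 37.9% and 30.9% for the coding region and 44.2% and 44.0% for the 3′ UTR. A window of 400 nt held 26.6% and 25.3% of sites by the stop codon. Over all exonic positions of any isoform, 6.44% and 8.97% of DRACH adenosines were listed. At 1.5 times in place of 2 times, 14 genes had more in cerebrum (67.8% of all genes) and 1, Grin1, in cerebellum (5.40%). By all sites, 15 genes had at least 2 times as many in cerebrum (73.4%). The cause of these shifts beyond the sites left out or added was not tested. Depth is unknown, so neither coverage nor expression could be weighed against the number of sites.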

Other observations

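Genes that work beside the receptors carried sites as well, in lists taken from their known roles. Of 20 auxiliary subunit genes, 17 had an exonic DRACH site in cerebellum and 19 in cerebrum, with 185 and 260 sites in all. Of 21938 annotated coding genes, many of them not neuronal, 34.3% and 44.3% had one. Cacng4, an AMPA receptor auxiliary subunit of the TARP family, had 23 and 32, and Shisa7 had 23 and 27. Kctd12, an auxiliary subunit of GABA-B receptors, had 32 and 35. The kainate receptor partners Neto1 and Neto2 had 14 and 29, and 20 and 20. Shisa6 had 2 and 17. Of the 19 genes with an exonic DRACH site in either library, 14 had more in cerebrum, against 81.6% of all coding genes with such a site.

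Of 10 transporter genes, 7 had an exonic DRACH site in cerebellum and 8 in cerebrum. The vesicular glutamate transporter gene Slc17a6 had 13 and 11, whereas Slc17a7, which is used by many cortical and granule neurons later on, had 0 and 3. Slc1a6, the glutamate transporter of mature Purkinje cells, had no site. All 5 enzyme genes had such sites in both libraries, led by Abat, which breaks down GABA, with 18 and 20, while Gad1, which makes GABA, had 1 and 1. All 6 anchoring genes had them too, with 20 sites and 32 sites in all.

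Outside DRACH, receptor introns held many sites whose adenosine is followed by TC. These made up 24.7% (20.4 to 29.5) of the intronic sites outside DRACH in cerebellum and 16.9% (14.6 to 19.5) in cerebrum, compared with 9.09% and 6.08% on exons. All coding genes had 23.3% and 16.1% in introns. At 5 listed positions of the receptor genes, all intronic, the reference base is G on the gene's strand. Whether the PWK allele has A there was not tested. Sites that also lie in another gene on the same strand numbered 19 and 41, of which Grik2 had 10 and 14 and Grm5 7 and 25.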
